A study of Homo sapiens with 10 samples.

Results

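Peaks of H4R3me2s (histone H4 dimethylated symmetrically at arginine 3) were examined where they lay close to the start or end of a protein-coding gene. A peak belonged to this class when it lay on chromosomes 1 to 22 and overlapped a window of 2 kb on either side of an annotated start or end of 1 of 19122 protein-coding genes (RefSeq gene spans, GRCh38). Such peaks are called gene-end peaks here, and the start of a gene is named separately where the strand was known. Of 80351 peaks on these chromosomes in 11 lists, 2483 were gene-end peaks: 1808 of 63305 in the lists of 9 single libraries, and the remainder in 2 lists made from merged libraries.

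The libraries came from SH-SY5Y, a neuroblastoma line of human origin that retinoic acid turns towards a neuronal state. The line carried a Tet-on system that drives a transgene. By the labels, it was cultured in 10% FCS with 300 µg/ml zeocin. Naive cells (n = 3) were not differentiated. BDNF cells (n = 3) received 10 µM retinoic acid for 6 days in 3% FCS. They then received BDNF, a neurotrophin, for 4 days at 50 ng/ml without FCS. Retinoic acid, BDNF and serum therefore cannot be told apart between Naive cells and differentiated cells. BDNF+Dox cells (n = 3) went through the same steps and also received 1 µg/ml doxycycline for 3 days. Doxycycline and induction of the transgene therefore cannot be told apart between BDNF+Dox and BDNF cells. 1 Input library served as control for all 9 ChIP libraries, and the labels do not say whether replicates were separate cultures or whether the line is a clone. P-values therefore measure the spread between these libraries, which may be technical.

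Promoters are the stretches around gene starts where transcription complexes assemble. Many promoters, above all those of genes active in most tissues, are rich in the dinucleotide CpG, while promoters of genes restricted to 1 tissue are often poor in it. H4R3me2s is written chiefly by PRMT5 and is best known as a mark of repressed promoters, although active regions that carry it have also been described.

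Promoters at starts with a peak were less often rich in CpG than promoters in general, as described below. The promoters that a library peak touched directly are shown first. Of 13149 genes with a RefSeq promoter sequence at their annotated start (GRCh38.p14, 300 bases, of which 250 lie upstream), 15 had that stretch overlapped by a peak of a single library. In 8 of them the peak's summit, its highest point, lay within the 300 bases. The 5 with the highest −log10 p are printed over the 250 upstream bases, 5′ to 3′ along the gene, with every CpG in capitals.
IPCEF1, chr6:154356804-154357053, minus strand: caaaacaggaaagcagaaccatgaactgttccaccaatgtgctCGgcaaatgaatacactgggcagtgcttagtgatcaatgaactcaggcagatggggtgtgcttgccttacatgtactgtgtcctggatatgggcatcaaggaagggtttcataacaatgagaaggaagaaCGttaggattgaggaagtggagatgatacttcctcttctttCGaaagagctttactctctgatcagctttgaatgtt
OR6C1, chr12:55314093-55314342, plus strand: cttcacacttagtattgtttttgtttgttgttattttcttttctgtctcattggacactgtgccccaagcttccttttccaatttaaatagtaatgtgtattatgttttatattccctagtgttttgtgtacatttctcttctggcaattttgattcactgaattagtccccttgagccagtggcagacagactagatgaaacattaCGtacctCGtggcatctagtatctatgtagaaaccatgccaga
SLCO1B3, chr12:20810455-20810704, plus strand: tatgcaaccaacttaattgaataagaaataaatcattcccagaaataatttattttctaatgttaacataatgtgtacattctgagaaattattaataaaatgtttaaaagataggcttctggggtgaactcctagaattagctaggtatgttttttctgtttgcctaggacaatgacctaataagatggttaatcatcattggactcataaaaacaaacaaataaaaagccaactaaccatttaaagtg
GJA5, chr1:147773352-147773601, minus strand: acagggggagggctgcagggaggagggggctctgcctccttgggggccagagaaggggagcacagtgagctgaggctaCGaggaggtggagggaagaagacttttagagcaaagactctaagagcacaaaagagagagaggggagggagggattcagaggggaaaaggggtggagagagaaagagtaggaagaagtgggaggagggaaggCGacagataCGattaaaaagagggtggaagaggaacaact
KRTAP6-1, chr21:30613931-30614180, minus strand: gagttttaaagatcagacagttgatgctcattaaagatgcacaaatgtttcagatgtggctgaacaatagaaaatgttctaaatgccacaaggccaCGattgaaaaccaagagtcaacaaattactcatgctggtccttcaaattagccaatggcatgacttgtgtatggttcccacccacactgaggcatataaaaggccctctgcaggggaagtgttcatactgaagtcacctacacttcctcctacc
These 5 stretches held between 0 and 3 CpGs each. IPCEF1 interacts with cytohesin exchange factors, OR6C1 is an olfactory receptor, SLCO1B3 is a hepatic organic anion transporter, GJA5 is the gap junction protein connexin 40, and KRTAP6-1 is a keratin-associated protein of hair. The GJA5 peak had its summit 48 bp inside the gene and lay outside the 250 bases printed. The upstream stretches of 3 genes with a strong pooled peak on their start side are also shown. These peaks come from other lists and did not overlap the promoter, so the sequences are examples and not a like-for-like comparison. The promoters that a pooled peak did overlap are named further below. H3-3B codes for the replacement histone H3.3, CEP112 for a centrosomal protein and UPP1 for uridine phosphorylase. Their peaks also lay outside the printed stretch, with summits 799, 599 and 1540 bp upstream of the start.
H3-3B, chr17:75779780-75780029, minus strand: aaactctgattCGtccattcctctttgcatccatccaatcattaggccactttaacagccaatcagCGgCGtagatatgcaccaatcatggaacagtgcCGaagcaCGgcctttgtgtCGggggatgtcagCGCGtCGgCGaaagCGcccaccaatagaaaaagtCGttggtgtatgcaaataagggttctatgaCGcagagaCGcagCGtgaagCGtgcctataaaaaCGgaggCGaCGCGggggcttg
CEP112, chr17:66192134-66192383, minus strand: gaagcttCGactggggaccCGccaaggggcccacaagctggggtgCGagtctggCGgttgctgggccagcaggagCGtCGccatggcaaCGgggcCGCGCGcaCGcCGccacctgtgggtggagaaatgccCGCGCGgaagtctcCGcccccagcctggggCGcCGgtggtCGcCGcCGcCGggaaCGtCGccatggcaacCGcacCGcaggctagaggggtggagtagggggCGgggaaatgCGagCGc
UPP1, chr7:48088454-48088703, plus strand: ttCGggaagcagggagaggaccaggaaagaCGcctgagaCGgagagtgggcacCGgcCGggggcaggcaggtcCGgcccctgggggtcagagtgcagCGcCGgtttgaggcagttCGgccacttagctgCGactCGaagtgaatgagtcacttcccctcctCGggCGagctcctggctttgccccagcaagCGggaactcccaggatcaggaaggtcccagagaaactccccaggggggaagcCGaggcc
The H3-3B stretch held 20 CpGs, the CEP112 stretch 29 and the UPP1 stretch 15. By a rule for CpG-rich promoters (at least 55% G and C and a ratio of observed to expected CpG of at least 0.6 over the 300 bases), the CEP112 promoter was CpG-rich, while those of H3-3B (GC content 54.0%) and UPP1 (ratio 0.519) each missed 1 of its limits.

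Gene-end peaks were a small share of each library's list. They numbered 279 (2.44% of the library's peaks), 153 (2.83%) and 221 (3.04%) in the Naive libraries, 172 (3.04%), 124 (2.93%) and 167 (2.57%) in the BDNF libraries, and 315 (3.09%), 187 (2.84%) and 190 (3.15%) in the BDNF+Dox libraries, by replicate number. The 95% Wilson intervals of these shares ran from 2.17% at the lowest bound to 3.62% at the highest, and such intervals cover counting error only. Naive replicate 1 had the most peaks in all (11438) and the lowest gene-end share. The groups overlapped in number and in share.

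The mean gene-end share was 2.77% ± 0.303 (SD, n = 3) for Naive, 2.85% ± 0.248 for BDNF and 3.03% ± 0.168 for BDNF+Dox. An exact F test, in which every way of assigning the 9 libraries to groups was enumerated, gave p = 0.446 for the share (adjusted 0.446) and 0.261 for the number on a log10 scale (adjusted 0.326). These adjustments ran over 5 measures compared by group. No pair of groups could reach a p below 0.1 in an exact test of 3 libraries against 3.

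In each library fewer summits lay near gene ends than the length of the windows alone would hold. The windows covered 4.80% of the usable length of the genome (1 Mb bins with a gene or a peak), whereas 2.75% ± 0.219 (SD, n = 9) of summits lay in them. The difference was −2.04 percentage points, negative in 9 of 9 libraries and ranging from −2.46 to −1.83 (exact two-sided sign-flip test, p = 0.00391, the smallest it can give, adjusted 0.00911 over 7 measures). It was −1.21 points with windows of 1 kb and −3.89 points with windows of 5 kb. The low density was not confined to the windows, as described further below. The libraries share 1 Input, so their deviations from it are not fully separate measurements. In the pooled lists 3.30% and 4.14% of summits lay in the windows, closer to the length share.

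The shortage was steepest at gene starts. Among peaks near a gene of known strand, 37.6% ± 4.94 (SD, n = 9) lay nearer to a start, whereas starts made up 49.7% of the window length (difference −12.0 points, below 0 in 9 of 9 libraries, exact sign-flip p = 0.00391, the smallest possible, adjusted 0.00911). By replicate, the start-side shares were 28.2, 36.1 and 35.6% in Naive, 40.6, 39.8 and 34.5% in BDNF, and 39.9, 46.1 and 38.0% in BDNF+Dox. Naive replicate 1 was the lowest and BDNF+Dox replicate 2 the highest. The difference from the length share was −20.7 points with windows of 1 kb and −4.21 points with windows of 5 kb. The exact F test did not call a difference between the 3 groups (p = 0.121, adjusted 0.304).

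**Figure D1:**
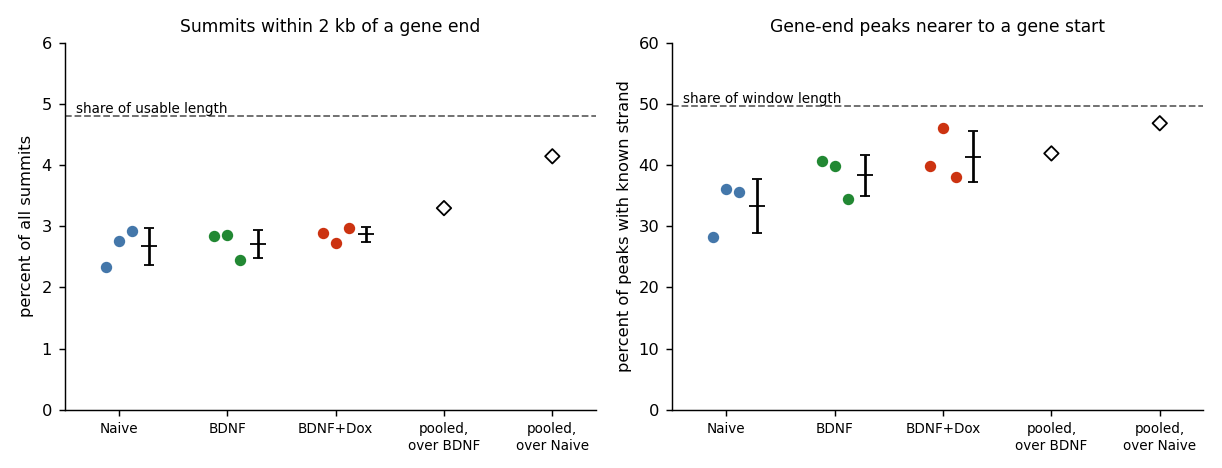
Left, percent of all peak summits that lay within 2 kb of a gene start or end; right, percent of gene-end peaks of known strand that lay nearer to a start. Filled points are single libraries, bars give the mean ± SD (n = 3), open diamonds are the pooled lists, and the dashed lines mark the corresponding shares of sequence length (4.80% and 49.7%), above every point.

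The density of summits along genes showed where they were missing. Within 500 bp of a gene start, the 9 libraries together had 60 summits, where 347.5 would lie at each library's own genome-wide density. The mean density there was 0.178 ± 0.0631 (SD, n = 9) of that level, and ranged from 0.10 to 0.26 over libraries. Within 500 bp of a gene end the libraries had 271 summits against 354.9 at the genome-wide density, a relative density of 0.738 ± 0.155.

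Along the gene, the relative density fell from 0.80 ± 0.203 at 1500 to 2000 bp upstream of the start to 0.26 ± 0.124 in the last 500 bp upstream. It was 0.13 ± 0.0943 in the first 500 bp of the gene, where 23 summits were found in all, and 0.55 ± 0.187 at 1500 to 2000 bp inside. Around gene ends it was 0.91 ± 0.247 in the last 500 bp of the gene and 0.68 ± 0.209 in the first 500 bp beyond it. Outside the windows the relative density was also below 1. It was 0.51 ± 0.219 at 2000 to 2500 bp beyond gene ends and 0.62 ± 0.279 at 4500 to 5000 bp beyond. Both means were below those at the end itself. At 4500 to 5000 bp upstream of starts it was 0.72 ± 0.325. Starts thus had a local low, while gene ends did not. These densities are descriptions with no test beyond that of the start-side share.

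The pooled lists, which compare merged BDNF+Dox reads with merged BDNF or Naive reads and use no Input, had the same low point. They held 6 summits within 500 bp of a start where 52.0 would lie at their own density (over BDNF) and 8 against 41.6 (over Naive). In the first 500 bp of genes they held 1 and 0 summits. Near gene ends they held 44 against 53.1 and 37 against 42.5.

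**Figure D2:**
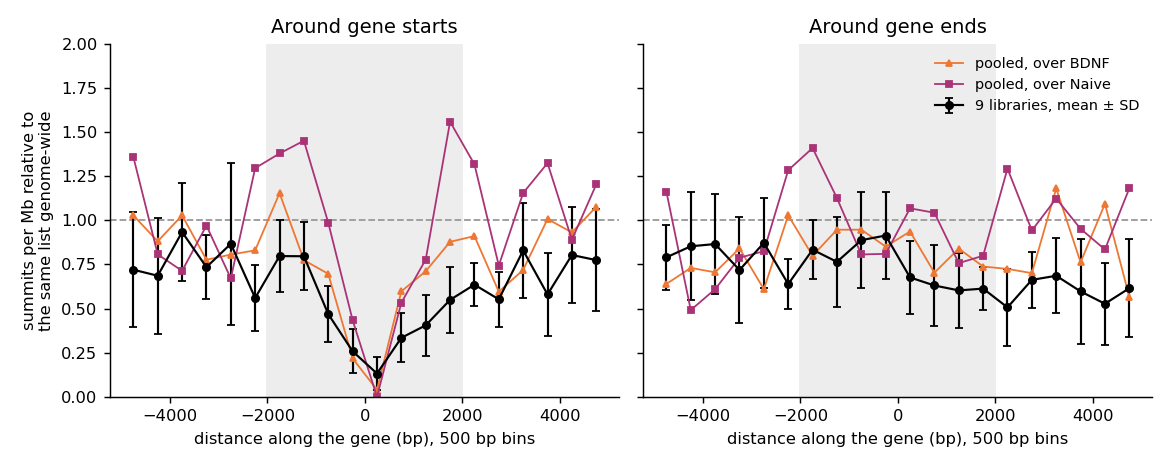
Summits per Mb in 500 bp bins by distance from the nearest gene start (left) or gene end (right), relative to the same list's density over chromosomes 1 to 22 (dashed line at 1). Negative distances lie before the start, or inside the gene before its end. Black points are the mean ± SD of 9 libraries, coloured lines are the pooled lists, and the shaded 4 kb are the windows used; all series are lowest in the first 500 bp of genes.

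Peaks of similar fold lay on both sides of the 2 kb limit. Just inside and just outside it, the relative density was 0.80 and 0.56 upstream of starts and 0.55 and 0.64 downstream of starts. It was 0.83 and 0.64 before gene ends and 0.61 and 0.51 beyond them. Over the 9 libraries, 441 peaks lay between 1500 and 2000 bp from the nearest gene start or end, just inside the limit, and 388 lay between 2000 and 2500 bp, just outside. The median fold enrichment over Input, as the authors' peak caller gave it, ranged over libraries from 3.23 to 3.81 inside and from 3.25 to 3.98 outside.

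Where a peak did lie near a start, the promoter was less often CpG-rich than promoters in general. The rule for CpG-rich promoters held for 60.7% of the 13149 promoters. Among genes with a library peak within 2 kb of the start, the CpG-rich share was 43.9% ± 8.09 (SD, n = 9). The difference from all promoters was −16.8 percentage points, below 0 in 9 of 9 libraries and between −34.1 and −7.65 (exact sign-flip p = 0.00391, the smallest possible, adjusted 0.00911). It was −24.0 points with windows of 1 kb and −8.80 points with windows of 5 kb.

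By library, the CpG-rich share was 26.6, 42.9 and 38.2% in Naive (17 of 64 genes, 21 of 49 and 26 of 68). It was 41.2, 47.5 and 46.7% in BDNF (21 of 51, 19 of 40 and 21 of 45). It was 46.7, 53.0 and 52.3% in BDNF+Dox (49 of 105, 35 of 66 and 34 of 65). The lowest BDNF+Dox value lay above the highest Naive value, and both overlapped the BDNF range. The widest 95% Wilson interval, that of BDNF replicate 2, ran from 32.9 to 62.5%.

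The mean of this share was 35.9% ± 8.40 (SD, n = 3) for Naive, 45.1% ± 3.44 for BDNF and 50.7% ± 3.48 for BDNF+Dox. The exact F test gave p = 0.0321, which became 0.161 after adjustment over the 5 measures, so the groups were not called different. BDNF+Dox exceeded Naive by 14.8 points with an exact p of 0.1, the smallest 3 libraries against 3 allow. In the pooled lists, 57.7% (71 of 123 genes, over BDNF) and 55.6% (75 of 135, over Naive) of start-side genes had a CpG-rich promoter.

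**Figure D3:**
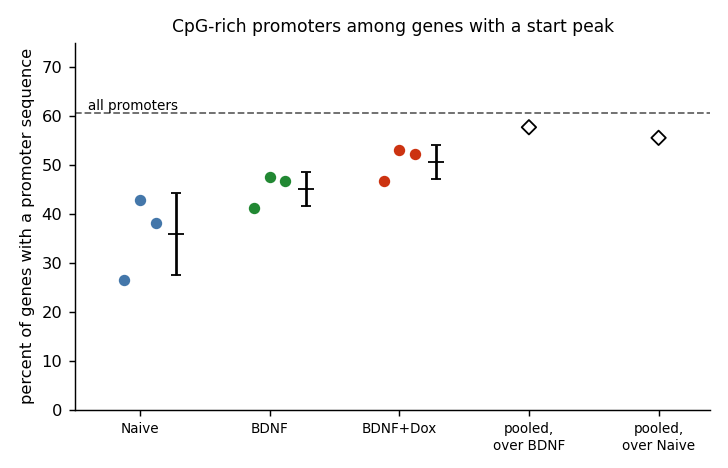
Percent of genes with a peak within 2 kb of their start whose promoter was CpG-rich. Filled points are libraries, bars the mean ± SD (n = 3), open diamonds the pooled lists, and the dashed line all 13149 promoters (60.7%); all 9 libraries lie below the line, from 26.6% in Naive replicate 1 to 53.0% in BDNF+Dox replicate 2.

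None of the 15 promoters overlapped by a library peak was CpG-rich, and their median GC content was 41.0%, against 62.7% over all promoters. Besides the printed genes they belonged to the cytokine genes IFNG (Naive replicate 3) and IL21 (BDNF replicate 3), the coagulation factor gene F11 and the G-protein regulator gene RGS18 (both Naive replicate 1), the glycosyltransferase gene GALNT13 and RERGL (both BDNF+Dox replicate 1), CPHXL (BDNF+Dox replicate 2), the phosphatase gene PPEF2 (BDNF replicate 1), and SPATA46 and LOC124902135 (both Naive replicate 2). Each was overlapped in 1 library. Of these 15, the promoter with the highest value was that of GALNT13, whose peak had a fold of 4.76 and a −log10 p of 6.55. In the authors' deposited tables of pooled peaks, the promoters of CCR2 (a chemokine receptor) and SCYGR6 over Naive, and of PNLIP (pancreatic lipase) over BDNF, were overlapped, and none of these was CpG-rich.

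Short motifs were counted on both strands of the 300-base promoters. The TATA-box letters TATAAA were found in 10.1% of all promoters and in 17.5% of the 515 promoters of genes with a start-side peak in 1 or more libraries. The GC-box letters GGGCGG were found in 58.9% and 41.7%. The CCAAT-box letters CCAAT were found in 36.8% and 40.6%, the E-box CACGTG in 8.81% and 7.96%, the nuclear receptor half-site AGGTCA in 11.7% and 13.0%, and the ETS-like letters CTTCCG in 26.3% and 22.3%. GGGCGG itself contains a CpG, as do CACGTG and CTTCCG. A match describes letters only.

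No difference in strength, length or recurrence between gene-end peaks and other peaks was called. The median fold over Input in gene-end peaks minus that in other peaks of the same library was 0.032 ± 0.0688 (SD, n = 9), positive in 7 of 9 libraries (exact sign-flip p = 0.191, adjusted 0.335). The median −log10 p differed by 0.033 ± 0.101 (exact p = 0.344, adjusted 0.451) and the median length by 0.889 ± 4.96 bp (exact p = 0.664, adjusted 0.664). A mean of 4.50% ± 1.72 of gene-end peaks and 4.98% ± 0.487 of other peaks overlapped a peak of another library, a difference of −0.483 points (exact p = 0.387, adjusted 0.451). When each library was left out in turn, the −log10 p difference ranged from 0.0192 (without BDNF replicate 1) to 0.0615 (without Naive replicate 1, exact p = 0.0312, adjusted 0.0547). The overlap difference ranged from −0.898 points (without Naive replicate 1, exact p = 0.0547, adjusted 0.0766) to −0.154 points (without BDNF+Dox replicate 2). The median fold at gene ends was 3.54 ± 0.0425 (SD, n = 3) for Naive, 3.55 ± 0.137 for BDNF and 3.41 ± 0.0642 for BDNF+Dox (exact F test, p = 0.207, adjusted 0.326).

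Few gene-end peaks of single libraries passed a q of 0.05. There were 3, of which 1 came from Naive replicate 3 and 2 from BDNF replicate 1. Among all peaks, the share that passed was 0.42, 0.333 and 0.398% in the Naive libraries, 0.283, 0.26 and 0.246% in the BDNF libraries, and 0.0589, 0.303 and 0.299% in the BDNF+Dox libraries. PDE6G, a subunit of the rod phosphodiesterase, had 1 in BDNF replicate 1 (fold 5.99, q = 0.00589). TCF21, a mesoderm transcription factor, had 1 in the same library 1986 bp beyond its end (fold 5.53, q = 0.0372). CCDC126 had 1 in Naive replicate 3 (fold 5.27, q = 0.0304).

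Most genes near a peak were found in 1 library. Of the 19122 genes, 1719 (8.99%) had a gene-end peak in 1 or more libraries, 187 (0.978%) in 2 or more and 13 (0.068%) in 3 or more. GABRA4 was found in 4 libraries and no gene in 5. When overlapping gene-end peaks were merged into 1766 regions, 1726 regions came from 1 library, 38 from 2 libraries and 2 from 3.

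The 2 regions shared by 3 libraries lay at the ends of CCDC126 and SOS1, and SOS1 was singled out after its values were seen. CCDC126 codes for a coiled-coil protein of little-known function. Its peaks straddled or lay just inside the gene's end at chr7:23644708, with folds of 4.01 in Naive replicate 1, 5.27 in Naive replicate 3 and 2.59 in BDNF replicate 3. Naive replicate 1 had a further peak 437 bp beyond the end (fold 3.90). SOS1, a guanine nucleotide exchange factor that activates RAS, had overlapping peaks 1363 to 1646 bp inside its end, with folds of 2.57 in Naive replicate 1, 3.18 in Naive replicate 2 and 4.46 in BDNF replicate 2. Neither gene had a gene-end peak in a BDNF+Dox library.

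A single gene separated groups, with gene-end peaks in every library of 1 group and no library of another. This was OR13G1, an olfactory receptor gene on chromosome 1, with a peak in 3 of 3 BDNF libraries, 0 of 3 Naive libraries and 0 of 3 BDNF+Dox libraries. It was 1 of 19122 genes in each of the comparisons of BDNF with Naive and with BDNF+Dox (0.00523%), and the other 4 such comparisons called 0 genes. Its peaks in BDNF replicates 1 and 2 overlapped 1395 bp beyond the gene's end (folds 4.85 and 2.69), while that of replicate 3 was a separate peak at 2005 bp (fold 3.47). With windows of 1 kb, with peaks of −log10 p of 3 or more, or with merged regions in place of genes, no gene separated groups in this way.

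**Figure D4:**
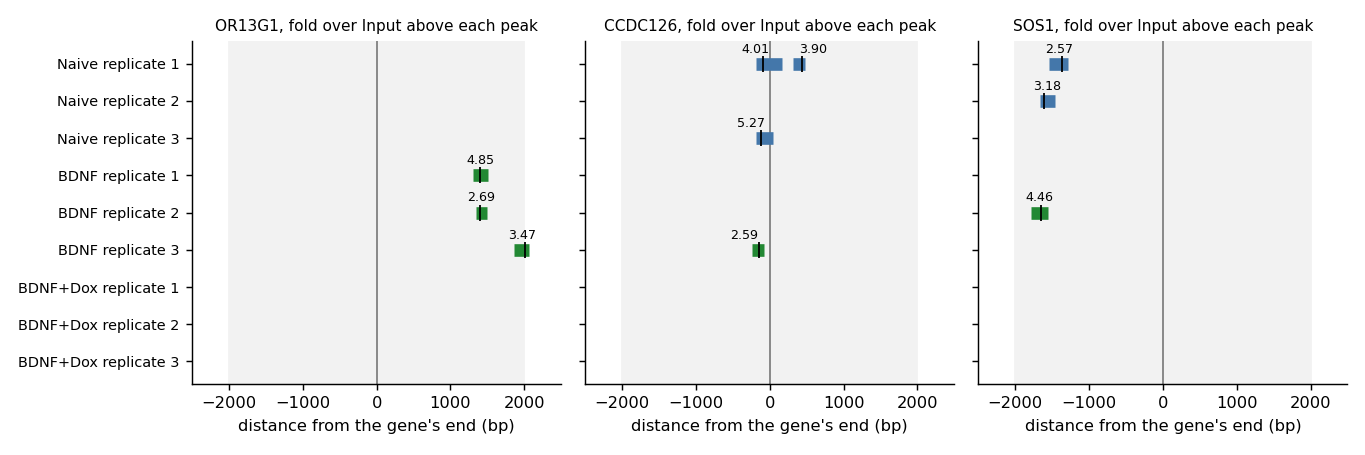
Peaks near the ends of OR13G1, CCDC126 and SOS1 in each of the 9 libraries (rows), by distance from the gene's end in bp, negative inside the gene. Bars are peaks, black ticks their summits, the number above each bar is its fold over Input, and the shaded stretch is the 2 kb window; OR13G1 has peaks in the 3 BDNF libraries, and no BDNF+Dox library has a peak at these gene ends.

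The other genes found in 3 or more libraries were also singled out after their values were seen, and their peaks mostly lay apart from each other. GABRA4, a GABA-A receptor subunit, had peaks in BDNF replicates 1 and 3 and in BDNF+Dox replicates 1 and 2, at 5 separate places. The summit of 1 of these, in BDNF+Dox replicate 1, lay 1842 bp inside the start of the neighbouring gene GABRB1. The histone methyltransferase gene ASH1L had overlapping peaks in Naive replicates 1 and 3 inside its end and another peak in BDNF+Dox replicate 2. CRNN, an epidermal protein gene, had overlapping peaks in BDNF+Dox replicates 1 and 3, at 1192 and 1263 bp beyond its end, and a separate one in Naive replicate 2. The olfactory receptor gene OR6P1 had overlapping peaks in Naive replicates 1 and 3 and another in BDNF+Dox replicate 1. The other 7 were ACBD3, PLA2G7, SERPINB13, TDRD6, LOC105375434, LOC124901689 and SOS1.

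The strongest gene-end peak of each library by −log10 p touched different genes. In Naive replicate 1, SRP19 (a signal recognition particle subunit), PPBP (a platelet chemokine) and FRG2C shared the highest fold, 5.41. FRG2C belongs to a family of near-identical copies, so its reads may be shared among them. In Naive replicate 2 the strongest was at CYTH1 (fold 5.13) with CNST next (4.52), and in Naive replicate 3 AKAP3 (5.14) followed CCDC126. In BDNF replicate 2 the strongest was at the olfactory receptor gene OR6K3 (4.92), with the testis bromodomain gene BRDT next (5.06 in fold but lower in −log10 p). In BDNF replicate 3 the strongest was at CREBRF (4.59), followed by the splicing factor gene SRSF10, the peroxisome gene PEX26 and LOC124900251 with the same −log10 p.

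In BDNF+Dox replicate 1 the strongest was at PLEKHA6 (fold 5.23). The next value, a fold of 4.76, was shared by peaks at GALNT13, GPBP1, BEND4, LIG4, AGBL2, ZNF66 and the gene pair ALKBH1 and SLIRP. In BDNF+Dox replicate 2 the peaks at STK10 and PTER shared the highest fold, 5.07. In BDNF+Dox replicate 3 those at IL7R, the interleukin 7 receptor, and HMMR, a hyaluronan receptor, shared 5.30. Peak heights in these lists take few distinct values, so equal folds are common.

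The pooled lists compare merged BDNF+Dox reads with merged BDNF or merged Naive reads, so the lists share the BDNF+Dox reads and carry no spread between replicates. Over BDNF, 337 of 9467 peaks were gene-end peaks (3.56%, 95% Wilson interval 3.20 to 3.95%). Over Naive, 338 of 7579 were (4.46%, 4.02 to 4.95%). They touched 358 genes (1.87% of 19122) over BDNF and 365 (1.91%) over Naive. The 135 overlapping peaks made up 40.1% of the first list and 39.9% of the second.

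In the authors' deposited tables, 4 gene-end peaks over BDNF reached a q of 0.05 (1.19%, against 0.803% of all peaks of that list). Over Naive, 3 did (0.888%, against 0.99% of all peaks). The q was 1 for 65.3% of the gene-end peaks over BDNF, against 68.5% of the other peaks of that list, and for 79.6% over Naive, against 82.9%. Few of these peaks were seen again in a BDNF+Dox library against Input: 63 over BDNF (18.7%, against 17.9% of other peaks of that list) and 53 over Naive (15.7%, against 18.3%). In 2 or more BDNF+Dox libraries there were 3 and 2.

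BLVRA, which codes for biliverdin reductase, reached a q of 0.05 in both of the authors' deposited tables. Its peak at chr7:43759750-43759939, 1733 bp inside the gene's start, had q = 0.0347 over BDNF (fold 3.86) and 0.0472 over Naive (fold 3.72). Against Input, BDNF+Dox replicate 3 had an overlapping peak (fold 4.91, q = 0.143), and the other 8 libraries had none. The 2 pooled values share their BDNF+Dox reads.

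The other genes at a q of 0.05 were called in 1 comparison. UPP1 had the lowest q over BDNF in the authors' deposited table (0.0108, fold 4.18, 1540 bp upstream of its start), and q = 1 over Naive. MAD2L1, a spindle checkpoint gene, had q = 0.0262 over BDNF (fold 4.08) and no peak over Naive. H3-3B had q = 0.0455 over BDNF (fold 3.93) and 0.790 over Naive (fold 2.94). CEP112 had q = 0.0131 over Naive (fold 4.17) and UTS2R, the urotensin receptor, q = 0.0144 (fold 4.13), and neither had a gene-end peak over BDNF. No gene-end peak of H3-3B, MAD2L1 or CEP112 was found in any of the 9 libraries against Input.

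Further genes among the 10 with the lowest q in a pooled list missed 0.05. In the authors' deposited tables, NGFR, the low-affinity neurotrophin receptor p75, had q = 0.0757 over BDNF and 0.0593 over Naive. GAP43, a growth cone protein, and the zinc finger gene ZNF66 had the same pair of q values. BTG2, an antiproliferative gene, and N4BP2 had q = 0.0593 over Naive and 0.925 over BDNF. SLC26A2, a sulphate transporter, had 0.0757 over BDNF and 0.230 over Naive, and ZNF584 (0.0757) and IL7R (0.113) were listed over BDNF only. WDR43 (0.107) and the ephrin receptor gene EPHB6 (0.175) were among the 10 over Naive, with 0.861 and 0.925 over BDNF. Against Input, none of the 9 libraries had a gene-end peak of NGFR, GAP43, BTG2, N4BP2, SLC26A2, ZNF584 or EPHB6. ZNF66, IL7R and WDR43 each had one in 1 BDNF+Dox library.

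**Figure D5:**
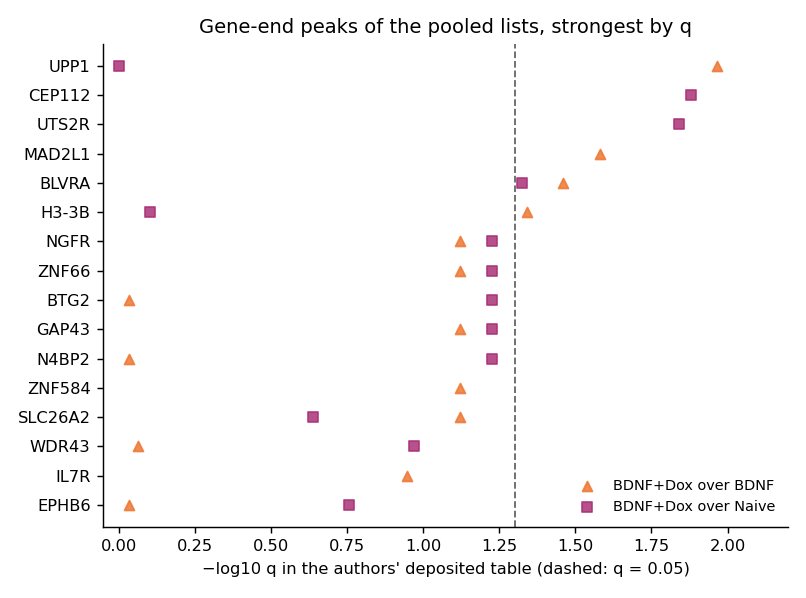
−log10 q, in the authors' deposited tables, of the strongest gene-end peak of each gene that was among the 10 with the lowest q in either pooled list. Triangles are BDNF+Dox over BDNF, squares BDNF+Dox over Naive, a missing symbol means no gene-end peak in that list, and the dashed line is q = 0.05; BLVRA is to the right of the line in both lists.

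Gene groups were described by how many members had a gene-end peak in 1 or more libraries, beside the 8.99% of all genes. Olfactory receptors, the odorant receptors of the nasal epithelium, had 83 of 391 (21.2%). Beside 0.978% of all genes, 14 of these receptors (3.58%) had one in 2 or more libraries. Their share per library ranged from 0.767% in BDNF+Dox replicate 3 to 6.65% in Naive replicate 1, against 0.654 to 1.75% of all genes. In BDNF+Dox replicate 3 it was below the share of all genes in that library (1.07%), and in the other 8 libraries it was above. In the pooled lists olfactory receptors stood at 6 of 391 in each (1.53%), beside 1.87% and 1.91% of all genes.

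Clustered protocadherins, neuronal adhesion proteins, had 22 of 53 (41.5%), but these came from 11 distinct peaks. A single peak of BDNF+Dox replicate 2, 1893 bp beyond the shared end of the PCDHA genes (fold 3.82), touched 15 of them. Zinc finger genes had 65 of 544 (11.9%) and keratins with keratin-associated proteins 16 of 149 (10.7%). Ribosomal protein genes had 5 of 77 (6.49%) and histone genes 3 of 85 (3.53%). No ribosomal protein or histone gene had one in 2 or more libraries, beside 0.978% of all genes. At that share few would be found in groups of this size.

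Groups chosen for the cells and the treatment lay on both sides of the 8.99% of all genes, each with few members. Axon guidance had 5 of 26 (19.2%): NRP1 in Naive replicate 1, and the receptors ROBO1 and ROBO2 and their ligands SLIT2 and SLIT3 in BDNF+Dox replicates 1 or 3. Neurotrophin and immediate early genes had 3 of 27 (11.1%): DUSP1 (Naive replicate 3), the receptor NTRK3 (BDNF replicate 1) and the secreted peptide precursor VGF (BDNF+Dox replicate 1, and in both pooled lists). Axon and cytoskeleton genes had 2 of 20 (10.0%), KIF5C and STMN2, and neuronal adhesion genes 2 of 28 (7.14%), CNTN3 and NLGN1.

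In the pooled lists, beside 1.87% of all genes over BDNF and 1.91% over Naive, axon and cytoskeleton genes had 3 of 20 over BDNF (15.0%, GAP43, KIF5C and MAPT) and 1 of 20 over Naive (5.00%, GAP43). Neurotrophin and immediate early genes had 2 of 27 in each list (7.41%, NGFR and VGF) and axon guidance genes 0 of 26 in each. Neuronal adhesion genes had 1 of 28 over BDNF (3.57%, CNTNAP4) and 0 over Naive. Mesenchymal markers of neuroblastoma had 3 of 19 over BDNF (15.8%, COL1A2, RUNX1 and YAP1) and 2 of 19 over Naive (RUNX1 and YAP1). The noradrenergic markers had 1 of 17 in each list (5.88%, ALK). The cell cycle genes had 2 of 31 over BDNF (6.45%, CDKN2C and MAD2L1) and 0 over Naive. Of the genes named in this paragraph, only KIF5C, VGF and RUNX1 had a gene-end peak against Input, each in 1 BDNF+Dox library.

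Peaks do not measure expression, so the markers of neuroblastoma states do not check the cells' identity here. Noradrenergic markers had 1 of 17 (5.88%, SLC18A2) and mesenchymal markers 3 of 19 (15.8%, FOSL2, RUNX1 and WWTR1, the last in 2 libraries). Arginine methyltransferases and partners had 2 of 18 (11.1%, DNMT3A and PRMT6), BAF complex genes 1 of 29 (3.45%, SS18) and cell cycle genes 2 of 31 (6.45%, BUB1 and RB1). PRMT5 had none in any list.

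Genes with a gene-end peak also differed by length and chromosome. The share of genes with one in 1 or more libraries was 6.63% among genes of up to 8.79 kb, 7.86% from there to 24.5 kb, 9.69% up to 65.5 kb, and 11.8% among longer genes (4 classes of equal size). In the shortest genes the windows of start and end overlap, so less length was searched, and part of this rise is fixed by the rule. The share was 7.98% of genes with a CpG-rich promoter and 11.0% of genes with another promoter. By chromosome it was highest on chromosome 7 (144 of 938 genes, 15.4%) and lowest on chromosome 22 (6 of 451, 1.33%) and chromosome 19 (47 of 1451, 3.24%). Chromosome 7 had 5783 peaks of any kind over the 9 libraries, of which 160 (2.77%) were gene-end peaks. Chromosome 22 had 316, of which 7 (2.22%) were. Over chromosomes 1 to 22 together, the mean gene-end share per library was 2.88%. Chromosome 19 had few peaks of any kind, 433 over the 9 libraries, and 50 of these (11.5%) were gene-end peaks, the highest share of any chromosome. Its gene-end windows covered 9.52 Mb, and per Mb of window it had only 0.584 gene-end peaks per library. That density ranged over chromosomes from 0.253 on chromosome 22 to 2.68 on chromosome 7. These values are descriptions with no test.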

How the data were processed

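H4R3me2s ChIP-seq of 9 SH-SY5Y libraries (3 per group, by the labels) was analysed from peak lists. The submitters' processing notes name cutadapt 1.1, Trimmomatic 0.32, Bowtie, MACS2 2.2.7.1 and the build GRCh38. Narrow peaks were called, per the file headers, at a p of 0.01, each library against the 1 Input, and merged BDNF+Dox against merged BDNF or Naive. Each deposited peak has a pileup signal, a −log10 p-value, a −log10 q-value and a fold enrichment, a ratio, all made by the authors; the headers say that q would not be calculated, yet the column holds values. Per the file headers, 17164402 to 18928589 reads per library and 17074000 of the Input were kept. Lists hold no counts per region, so precision is limited by peak numbers. A call over a control needs more signal than that control has nearby, so these values are not absolute levels, and Input coverage at gene ends was not analysed here. Folds of single peaks were compared within a list only, and between libraries only as medians over gene-end peaks. An exception was the ranking of promoters overlapped by a library peak, which ran across libraries. Broad peaks were not used here.

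Gene spans came from RefSeq (GRCh38.p14), with strand for 15100 of 19122 genes from the promoter table. Exons were not used here. Some entries without a promoter carry spans of alternate scaffolds; 1 gene named by the rule, GTF2H2C_2, is not reported for that reason. Usable length was 2749 bins of 1 Mb holding a gene or peak. Distance and nearest side were taken from the summit. Python 3.11.15, numpy 2.4.6, pandas 2.3.3 and matplotlib 3.10.9 were used, and the tests were tested on simulated data. Groups were compared by exact permutation of the F ratio, group pairs by exact permutation over 20 assignments, and libraries against a reference by exact two-sided sign-flips, with Benjamini-Hochberg adjustment within each family and a call at an adjusted p under 0.05.

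Members and gene lists were chosen with earlier results of these data known. Genes were named by rule: the 10 with the smallest q in each pooled list, genes separating groups, genes in 5 or more libraries, regions in 4 or more, the 2 strongest peaks of each library with ties, list members in 3 or more libraries, and PRMT5. A few genes and gene lists are not reported here. The labels do not say that replicate numbers pair libraries, so no pairing was used in the main tests. Alternatives were windows of 1 and 5 kb, summits in place of overlap, −log10 p of 3 or 5, q of 0.05, equal peak numbers, chromosome X, merged regions, and each library left out.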

Additional observations from a re-analysis of the deposited data

Results flagged for a closer look

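The CpG-rich share of promoters with a start-side peak was marked because the exact permutation test of the F ratio gave an unadjusted p of 0.0321 for a difference between the groups. The means were 35.9% for Naive, 45.1% for BDNF and 50.7% for BDNF+Dox (n = 3 each), and the p adjusted over 5 measures was 0.161. Naive replicate 1, which has the most peaks of all libraries, also had the lowest share, 26.6%. With equal peak numbers per library the unadjusted exact permutation p was 0.168, and it ranged from 0.0107 to 0.1 when each library was left out in turn (0.0679 without Naive replicate 1).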

How the results depend on the processing

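The shortage of summits at gene ends, the shortage on the start side and the low CpG-rich share kept their direction and stayed past the threshold under every alternative that gave a value. When each library was left out in turn they ranged from −2.07 to −1.99, from −13.1 to −10.8 and from −17.9 to −14.6 percentage points (exact p = 0.00781 each, the smallest 8 libraries allow). At a −log10 p of 5 or more the CpG-rich share had no value, since Naive replicate 2 had no start-side gene with a promoter sequence. The start-side test, the test of overlap with other libraries, and the settings without genes named LOC or with only genes that have a promoter entry were chosen after seeing the data.

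No comparison by group was called under any alternative after adjustment. Same-numbered libraries of different groups correlated from −0.0161 to 0.0144 and differently numbered ones from −0.0159 to 0.0169. Since neither kind of pair correlated, these values cannot show whether replicate numbers pair libraries. With the replicate number as a block, the adjusted p-values of the 5 group comparisons (exact F test) lay between 0.139 and 0.472. The lowest was that of the CpG-rich share, with a BDNF+Dox minus BDNF difference of 5.55 points.

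Values that changed sign were uncalled in each case, and the cause was not tested. With windows of 1 kb the fold difference was −0.024 and the −log10 p difference −0.045. With windows of 5 kb BDNF+Dox minus BDNF in gene-end share was −0.0393 points and the length difference −0.500 bp. At a −log10 p of 5 or more the fold, −log10 p and overlap differences were −0.033, −0.15 and 0.0239. With equal peak numbers the median fold of BDNF+Dox minus BDNF was 0.027 and the length difference −0.222 bp. With only genes that have a promoter entry the length difference was −0.556 bp.

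Counts followed the window and the threshold by construction. Genes with a gene-end peak numbered 884 at 1 kb, 3820 at 5 kb and 1107 with equal peak numbers. Those in 3 or more libraries numbered 1 at 1 kb, 144 at 5 kb, 6 at a −log10 p of 3 or more, 7 with equal numbers, and 2 as merged regions. Genes separating groups numbered 0 at 1 kb, 13 at 5 kb, 0 at a −log10 p of 3 or more, and 0 as merged regions. Pooled gene-end peaks over BDNF numbered 156 (1.65%) at 1 kb, 791 (8.36%) at 5 kb, 53 (4.74%) at a −log10 p of 5 or more and 4 (5.26%) at a q of 0.05. Over Naive they numbered 141 (1.86%), 764 (10.1%), 52 (5.79%) and 3 (4.00%).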
